A study of Rattus norvegicus with 24 samples.

Results

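The classic target genes of the glucocorticoid receptor examined here were Fkbp5, Sgk1, Tsc22d3, Zbtb16, Nfkbia and Cdkn1a, which are 6 of the 32883 gene rows of a raw count table from rat hippocampus. They were listed by name as textbook targets, with earlier results of these data known, and all 6 passed the filter on low counts that left 14838 genes for testing. The rows are ENSRNOG00000022523 for Fkbp5, ENSRNOG00000011815 for Sgk1, ENSRNOG00000056135 for Tsc22d3, ENSRNOG00000029980 for Zbtb16, ENSRNOG00000007390 for Nfkbia and ENSRNOG00000000521 for Cdkn1a. The count table holds identifiers only and the RefSeq gene table used here lists no Ensembl identifiers, so each symbol rests on the choice of the row and could not be checked. The series concerns memory enhancement by glucocorticoids, and holds 24 hippocampal libraries of male Sprague-Dawley rats by RNA-seq. There were 7 libraries of untrained rats given vehicle, 6 of untrained rats given corticosterone, 5 of trained rats given vehicle and 6 of trained rats given corticosterone. Dose, route, training task and time of sampling are not in the labels, and nothing in them says whether the libraries are of different animals, so the p-values reflect only how much these libraries vary.

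Corticosterone, the main glucocorticoid of the rat, binds the glucocorticoid receptor and, at lower concentrations, the mineralocorticoid receptor, and both are abundant in hippocampal neurons. The bound receptor moves to the nucleus, binds glucocorticoid response elements in DNA and raises or lowers transcription of nearby genes. Among the genes it induces in many tissues are brakes on the response itself (Fkbp5), transcription regulators (Tsc22d3, Zbtb16), a kinase (Sgk1), an inhibitor of NF-κB (Nfkbia) and an inhibitor of the cell cycle (Cdkn1a). Whole hippocampus mixes neurons, glia and vessels, and fewer cells of a type and less RNA per cell cannot be told apart in such bulk samples.

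Promoter sequences from RefSeq (build GRCr8) were found for 5 of the 6 genes, with 9 listed transcription starts between them; Zbtb16 is named only. The 250 bases before each start were searched on both strands for the palindromic response element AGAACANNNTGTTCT, for the relaxed form GNACANNNTGTNC and for AGAACA, which is a single arm of the palindrome and lies within it. None of the 9 windows (0) held any of these motifs, while 17.5% of all 33469 windows of this length held AGAACA, 0.373% the relaxed form and 0.012% the full palindrome. No match says only that these letters are absent from these windows. A κB motif was found in the Nfkbia window, as in 3.54% of all windows, and a p53 decamer in the Cdkn1a window, as in 6.64%. The windows of the gene that inhibits NF-κB, of the cell cycle inhibitor, which had the largest fold change of the 6, and of Fkbp5, with 76% G and C bases, are shown with those matches in capitals. They lie at chr6:78597073-78597322 (minus strand) for Nfkbia, chr20:7150682-7150931 (plus strand) for Cdkn1a and chr20:6543556-6543805 (minus strand) for Fkbp5.
Nfkbia: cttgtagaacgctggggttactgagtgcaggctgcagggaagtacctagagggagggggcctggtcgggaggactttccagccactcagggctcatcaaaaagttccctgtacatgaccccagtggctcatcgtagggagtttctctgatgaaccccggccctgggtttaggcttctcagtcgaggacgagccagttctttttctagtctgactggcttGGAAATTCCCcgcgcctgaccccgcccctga
Cdkn1a: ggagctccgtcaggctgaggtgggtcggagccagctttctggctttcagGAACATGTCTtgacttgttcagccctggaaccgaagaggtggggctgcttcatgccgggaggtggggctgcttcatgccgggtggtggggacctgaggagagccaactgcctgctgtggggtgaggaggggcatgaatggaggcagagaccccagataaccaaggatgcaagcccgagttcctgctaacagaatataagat
Fkbp5: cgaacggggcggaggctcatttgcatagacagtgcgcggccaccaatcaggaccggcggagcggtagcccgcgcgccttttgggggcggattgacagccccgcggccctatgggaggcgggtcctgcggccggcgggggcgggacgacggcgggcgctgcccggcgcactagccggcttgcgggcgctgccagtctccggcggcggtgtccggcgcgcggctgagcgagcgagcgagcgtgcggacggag

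The total count in genes was between 13760331 and 16765088 per library. Levels are given as CPM, the count of a gene relative to the TMM-scaled total of its library, and are not divided by transcript length, so they are compared between libraries and not between genes. The first principal component of log2 CPM carried 31.5% of the variance and set 8 libraries apart (19.04 or above) from the other 16 (0.0027 or below), 6 of them from corticosterone and 2 from vehicle rats. The gene that leads this component ranged from 5.70 to 4674 CPM over the libraries. Its level stood between 1748 and 4674 CPM in the 8 libraries, which are the untrained vehicle replicate 17, the untrained corticosterone replicates 19, 29 and 39, the trained vehicle replicate 5 and the trained corticosterone replicates 8, 33 and 40. Untrained vehicle replicate 41 has its column after those of trained vehicle rats and before those of trained corticosterone rats, and was kept in its labelled group.

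The comparison of corticosterone with vehicle asked which of the target genes responded to the hormone. Averaged over training, Cdkn1a, Fkbp5 and Zbtb16 rose, by 2.53-fold, 1.38-fold and 1.37-fold, so that 3 of the 6 genes passed (edgeR quasi-likelihood test, adjusted p under 0.05 over all genes). Over all genes tested 0.930% passed in either direction, 0.681% as higher and 0.249% as lower. Tsc22d3 was 1.15-fold higher on average and did not pass, and the levels of Sgk1 and Nfkbia differed by 1.05-fold and 0.978-fold, neither passing. Over the 6 genes the log2 fold changes had a median of 0.33, against 0.0022 over all 14838. With DESeq2, Tsc22d3 passed as well, which it did in no other alternative fit.

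**Figure D1:**
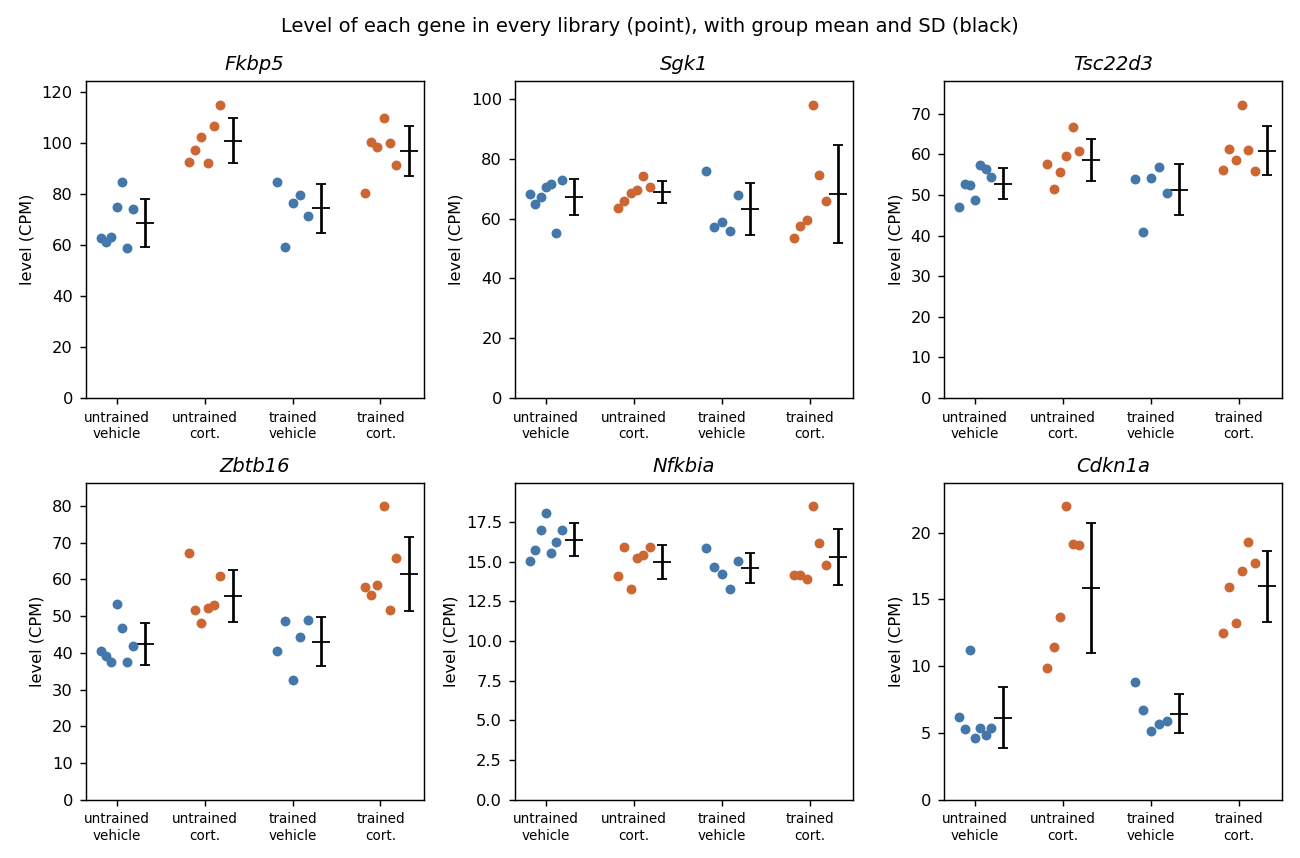
Level in CPM (y axis, from 0) of each of the 6 genes in every library, by group on the x axis, with points for libraries (blue vehicle, orange corticosterone) and the group mean and SD in black. The corticosterone libraries of Cdkn1a lie between 9.84 and 21.98 CPM, and 11 of 12 stand above every vehicle library. At least 11 do so for 0.236% of all genes. The groups of Sgk1 and Nfkbia overlap throughout.

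Fkbp5 encodes a co-chaperone of Hsp90 that lowers the affinity of the glucocorticoid receptor for its ligand, and its induction by that receptor forms a short negative feedback loop. Its level ran from 58.9 to 84.7 CPM in the 7 untrained vehicle libraries (median 63.3 CPM) and from 92.1 to 115 CPM in the 6 untrained corticosterone libraries (median 99.7 CPM). In trained rats it was 84.6, 59.2, 76.4, 79.7 and 71.5 CPM in the vehicle libraries and 80.5 to 109.9 CPM in the 6 corticosterone libraries (median 99.1 CPM). All 6 untrained corticosterone libraries stood above all 7 untrained vehicle libraries, while in trained rats the lowest corticosterone library, replicate 3, lay below the highest vehicle library, replicate 5. Over both training states 11 of 12 corticosterone libraries exceeded every vehicle library. At least 11 did so for 0.236% of all genes, and all 12 for 0.142%. Separation of the untrained groups without overlap, with corticosterone higher, was found for 0.317% of all genes.

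Averaged over training, Fkbp5 rose by 0.47 on the log2 scale (SE 0.06, edgeR adjusted p = 0.000128), the 22nd smallest p of all genes. Within untrained rats it was 0.56 (SE 0.09, edgeR adjusted p = 0.00121) and passed. Within trained rats it was 0.38 (SE 0.10, edgeR adjusted p = 0.147) and did not pass, although DESeq2 called it there (adjusted p = 0.0325). The difference between the training states was -0.18 on the log2 scale, with a 95% interval from -0.45 to 0.09 (edgeR adjusted p = 0.962). Without the 8 libraries high on the first component, which leaves 6 against 3 untrained libraries, the untrained log2 fold change was 0.48 and no longer passed (edgeR adjusted p = 0.284), and the averaged value of 0.45 passed (edgeR adjusted p = 0.0214).

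Zbtb16 encodes PLZF, a zinc finger transcription factor that glucocorticoids induce in several tissues. In the order of replicates 5, 10, 20, 25 and 35 its level was 40.4, 48.6, 32.7, 44.4 and 48.9 CPM in the trained vehicle libraries, and in the 6 trained corticosterone libraries it ran from 51.8 to 80.0 CPM (median 58.2 CPM). It ran from 37.6 to 53.3 CPM in untrained vehicle libraries (median 40.4 CPM) and from 48.1 to 67.1 CPM in untrained corticosterone libraries (median 52.6 CPM). The trained groups did not overlap, a separation with corticosterone higher that 0.539% of all genes showed, whereas in untrained rats 2 of 6 corticosterone libraries stood above every vehicle library.

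Zbtb16 rose by 0.45 on the log2 scale averaged over training (SE 0.08, edgeR adjusted p = 0.00223). The values within untrained rats (0.39, SE 0.11, edgeR adjusted p = 0.17) and within trained rats (0.52, SE 0.12, edgeR adjusted p = 0.0784) did not pass alone. In trained rats it passed with DESeq2 (adjusted p = 0.00918) and with 1 surrogate variable in the model (edgeR adjusted p = 0.0364). It also passed there with the level of the gene leading the first component as a covariate (edgeR adjusted p = 0.0465). Without the 8 libraries high on that component the averaged log2 fold change was 0.47 and missed the threshold (edgeR adjusted p = 0.0753). With the covariate the averaged value was 0.49 and passed (edgeR adjusted p = 0.00147).

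Tsc22d3 encodes GILZ, a leucine zipper protein that binds NF-κB and AP-1 and carries part of the anti-inflammatory action of glucocorticoids. Its level ran from 47.0 to 57.5 CPM in untrained vehicle libraries (median 52.6 CPM) and from 51.5 to 66.8 CPM in untrained corticosterone libraries (median 58.6 CPM). In the trained vehicle libraries it was 53.9, 40.9, 54.1, 57.0 and 50.5 CPM, and in the trained corticosterone libraries it ran from 56.0 to 72.3 CPM (median 59.8 CPM). Of the 12 corticosterone libraries 8 stood above every vehicle library, and the groups overlapped in both training states. The share of all genes with at least 8 such libraries was not counted, so this count is a description only. The log2 fold change averaged over training was 0.20 (SE 0.05, 95% interval 0.09 to 0.31), with an unadjusted p of 0.00104 that ranked 177th among all genes and an edgeR adjusted p of 0.0868. DESeq2 gave an adjusted p of 0.031 and was the only alternative in which Tsc22d3 passed on average. In the 24 fits that left out 1 library, the edgeR adjusted p ran from 0.051 to 0.163 and 0 passed. Without the 8 libraries high on the first component the averaged log2 fold change was 0.18 (edgeR adjusted p = 0.595). Within untrained and trained rats the log2 fold changes were 0.15 (SE 0.07, edgeR adjusted p = 0.766) and 0.25 (SE 0.08, edgeR adjusted p = 0.39).

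Sgk1 encodes a serine/threonine kinase that acts downstream of both corticosteroid receptors and regulates ion channels and transporters. RefSeq lists a pseudogene, Sgk1-ps1. Reads without a unique alignment, 12.8% of a column total on average, were not counted in genes. How many of them came from Sgk1 is not known, which makes the level of Sgk1 uncertain. It ran from 55.3 to 72.9 CPM in untrained vehicle libraries (median 68.4 CPM) and from 63.7 to 74.1 CPM in untrained corticosterone libraries (median 69.2 CPM). In the trained vehicle libraries it was 76.0, 57.1, 59.0, 55.8 and 67.9 CPM, and the trained corticosterone libraries ran from 53.5 to 98.2 CPM (median 62.7 CPM). The groups overlapped throughout, and the highest value of all came from trained corticosterone replicate 28. The log2 fold change for corticosterone was 0.07 averaged over training (SE 0.08, edgeR adjusted p = 0.889), and its 95% interval in fold terms ran from 0.94 to 1.17. Without replicate 28 the averaged log2 fold change was 0.0023, and that in trained rats went from 0.11 to -0.024.

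Nfkbia encodes IκBα, which holds NF-κB in the cytoplasm and is itself transcribed in response to NF-κB as well as to glucocorticoids. Its level ran from 15.03 to 18.1 CPM in untrained vehicle libraries (median 16.2 CPM) and from 13.3 to 15.9 CPM in untrained corticosterone libraries (median 15.3 CPM). In the trained vehicle libraries it was 15.8, 14.7, 14.2, 13.3 and 15.1 CPM, and the trained corticosterone libraries ran from 13.9 to 18.5 CPM (median 14.5 CPM). The groups overlapped in both states. The log2 fold change for corticosterone was -0.03 averaged over training (SE 0.05, edgeR adjusted p = 0.935), with a 95% interval from 0.911-fold to 1.05-fold. It was -0.13 in untrained rats (SE 0.07, edgeR adjusted p = 0.8) and 0.06 in trained rats (SE 0.07, edgeR adjusted p = 0.887). Nfkbia varied least of the 6 genes, with a biological coefficient of variation (the square root of the edgeR dispersion) of 7.33%. Its counts were 196 to 303 per library.

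Cdkn1a encodes p21, an inhibitor of cyclin-dependent kinases that is induced by p53 and by glucocorticoids and is also expressed in postmitotic cells. In untrained vehicle libraries its level was 6.23, 5.31, 11.2, 4.65, 5.38, 4.87 and 5.34 CPM (replicates 2, 7, 17, 22, 27, 32 and 41), and in untrained corticosterone libraries it ran from 9.84 to 21.98 CPM (median 16.4 CPM). In trained rats it was 8.84, 6.75, 5.14, 5.69 and 5.86 CPM in the vehicle libraries and ran from 12.5 to 19.3 CPM in the corticosterone libraries (median 16.5 CPM). The trained groups did not overlap, as for 0.539% of all genes with corticosterone higher. In untrained rats a single vehicle library, replicate 17, reached above the lowest corticosterone library, replicate 4. Cdkn1a also had the widest spread, with a biological coefficient of variation of 24.3% on counts of 71 to 332 per library.

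Averaged over training the log2 fold change of Cdkn1a was 1.34 (SE 0.15, edgeR adjusted p = 5.44e-06), the 14th smallest p of all genes. It was the 4th largest rise among the 101 genes called higher, where Fkbp5 was 37th and Zbtb16 39th and the median log2 fold change was 0.39. The rise passed in untrained rats (1.37, SE 0.20, edgeR adjusted p = 0.000569) and in trained rats (1.31, SE 0.22, edgeR adjusted p = 0.00692). It missed the threshold in trained rats when blocked by runs of 5 sample numbers (log2 fold change 1.19, edgeR adjusted p = 0.123).

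**Figure D2:**
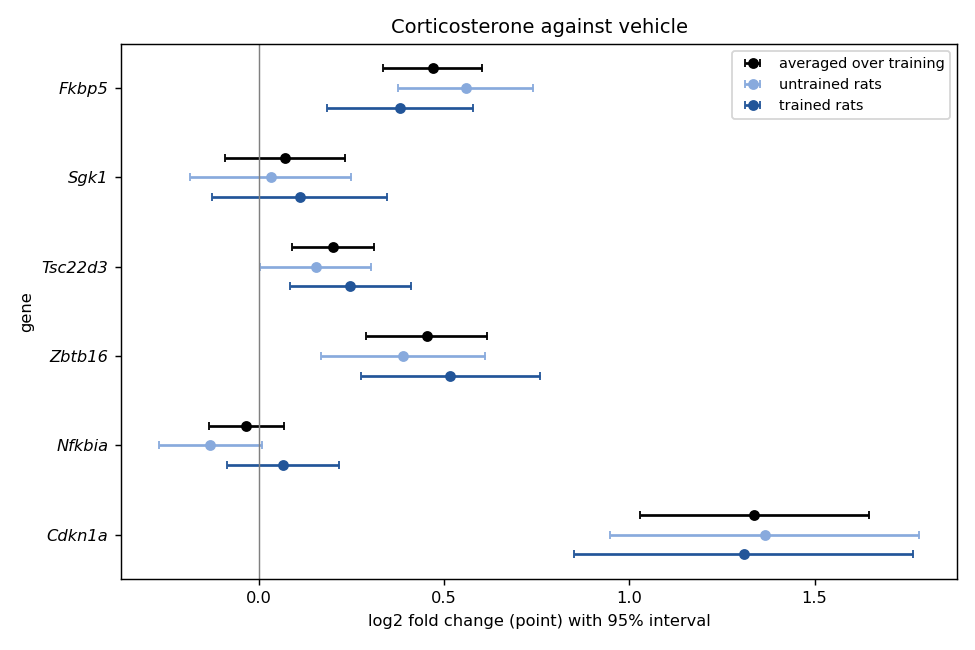
Log2 fold change of corticosterone against vehicle (x axis) for each gene (y axis), with 95% intervals, averaged over training (black), in untrained rats (light blue) and in trained rats (dark blue). The averaged value of Cdkn1a lies at 1.34, those of Fkbp5 and Zbtb16 at 0.47 and 0.45, and the intervals of Sgk1 and Nfkbia span 0.

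Within untrained rats 2 of the 6 genes passed, Fkbp5 and Cdkn1a, where 0.357% of all genes passed, 0.323% as higher and 0.0337% as lower. Within trained rats only Cdkn1a passed (1 of 6, against 0.162% of all genes). That a gene passed in one training state and not in the other does not show a difference between them, and for no member did the interaction pass (0 of 6, 0 with an unadjusted p under 0.05, and 0 with DESeq2). Over all genes 0% passed the interaction and 4.27% had an unadjusted p under 0.05. The interaction estimates ran from -0.18 for Fkbp5 to 0.19 for Nfkbia on the log2 scale. The widest 95% interval was that of Cdkn1a, from 0.626-fold to 1.48-fold, and the narrowest that of Nfkbia, from 0.993-fold to 1.32-fold.

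Cdkn1a moved with the measure that set 8 libraries apart. Among corticosterone libraries it ran from 15.9 to 21.98 CPM (median 19.1 CPM) in the 6 that were high on the first component and from 9.84 to 17.1 CPM (median 12.9 CPM) in the other 6. Among vehicle libraries it was 11.2 and 8.84 CPM in the 2 high ones and 4.65 to 6.75 CPM in the other 10, so these sets did not overlap, as for 4.41% of all genes with the high libraries above. In the 16 libraries low on the component, the lowest of 6 corticosterone libraries (9.84 CPM) stood above the highest of 10 vehicle libraries (6.75 CPM), a separation that 0.243% of all genes showed. A fit of these 16 alone gave a log2 fold change of 1.21 for Cdkn1a (edgeR adjusted p = 3.04e-06). With the level of the leading gene as a covariate in all 24 it was 1.14 (edgeR adjusted p = 2.13e-07), against 1.34 without. The median of Fkbp5 was 100.1 CPM in the 6 high and 97.7 CPM in the 6 low corticosterone libraries, and that of Zbtb16 was 54.4 and 58.2 CPM. Nfkbia had medians of 15.3 and 14.1 CPM in the same sets, Tsc22d3 of 61.0 and 56.9 CPM, and Sgk1 of 70.1 and 64.8 CPM.

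**Figure D3:**
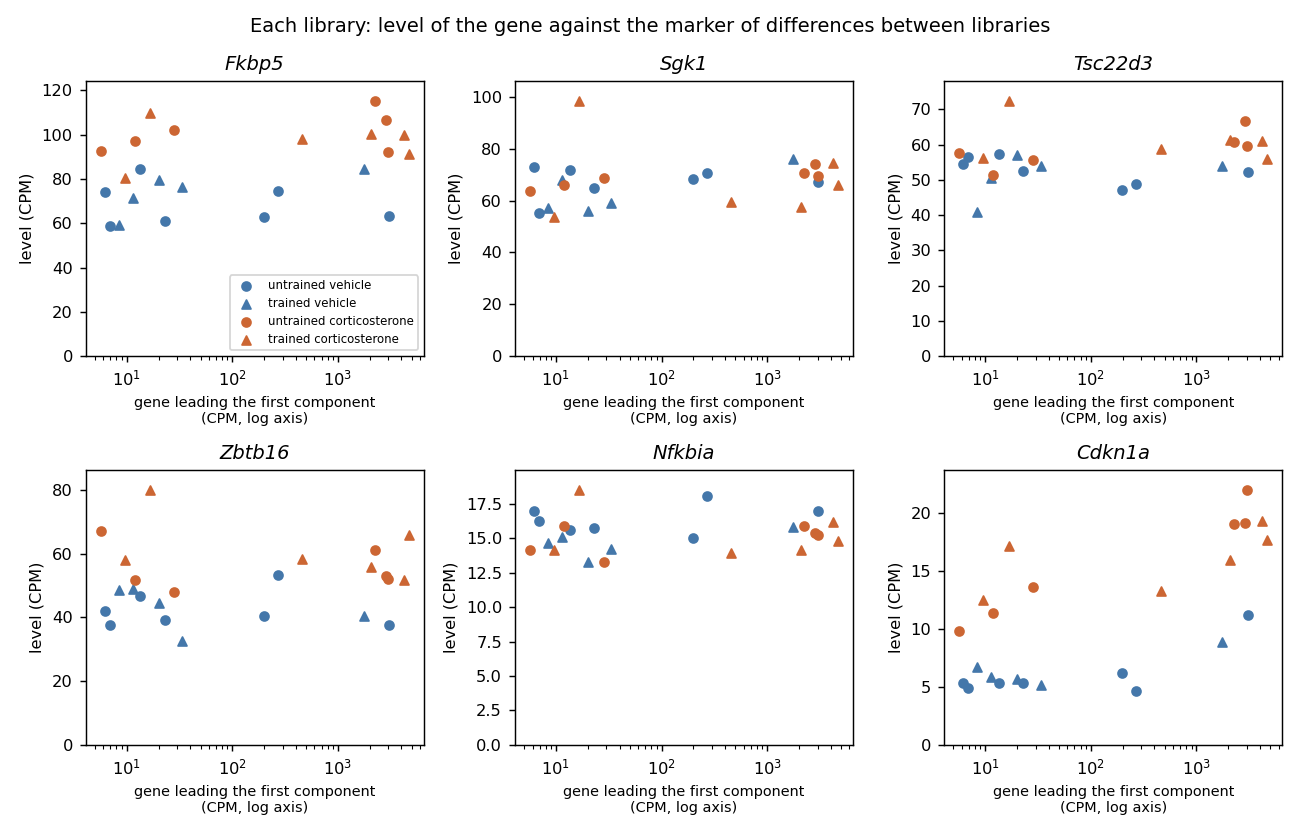
Level in CPM of each gene (y axis, from 0) against the level of the gene that leads the first principal component (x axis, CPM on a log axis), 1 point per library, coloured by treatment, with circles for untrained and triangles for trained rats. For Cdkn1a the 2 vehicle libraries on the right stand at 11.2 and 8.84 CPM, above the other 10 vehicle libraries at up to 6.75 CPM.

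Trained and untrained rats were compared to see whether training moved the target genes. No member passed averaged over treatment (0 of 6 with edgeR, 0 with an unadjusted p under 0.05, 0 with DESeq2), where 0% of all genes passed. The log2 fold changes ran from -0.07 for Nfkbia to 0.09 for Zbtb16, and the 95% intervals reached from 0.829-fold to 1.27-fold for Cdkn1a and from 0.888-fold to 1.02-fold for Nfkbia. Within vehicle rats Nfkbia had a mean of 16.4 ± 1.04 CPM in untrained libraries (SD, n = 7) and 14.6 ± 0.959 CPM in trained libraries (SD, n = 5). This log2 fold change of -0.17 (SE 0.07) had an unadjusted p of 0.0277 and an edgeR adjusted p of 0.9999, so it did not pass. It was the 1 member of 6 with an unadjusted p under 0.05 in that comparison, where 2.28% of all genes had one. Within corticosterone rats 0 of 6 passed with edgeR or DESeq2 and 0 had an unadjusted p under 0.05, where 0% of all genes passed with edgeR and 6.09% had such a p.

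**Figure D4:**
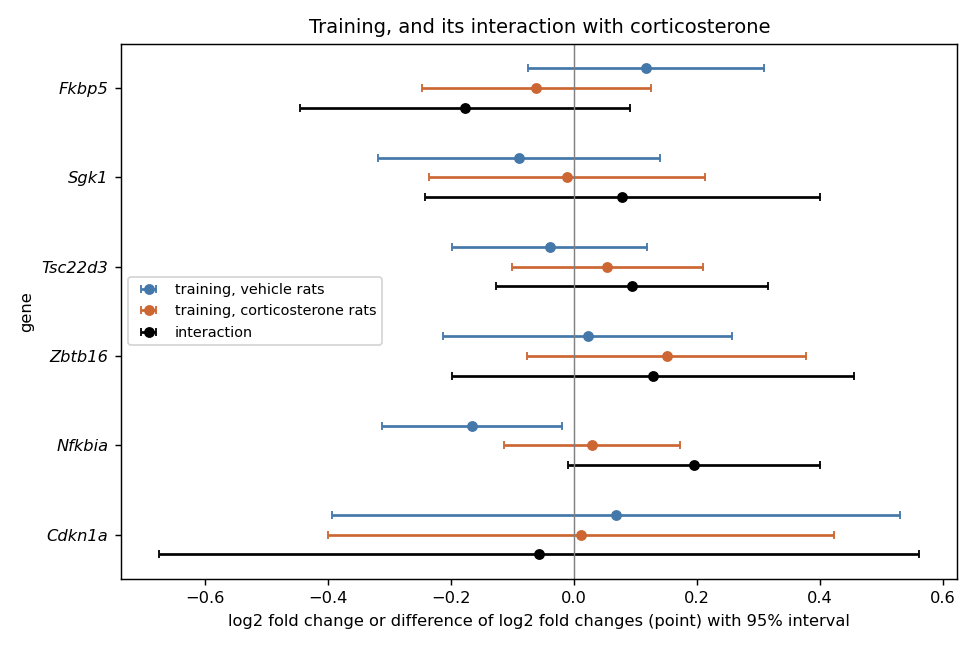
Effect of training on each gene (y axis) as log2 fold change in vehicle rats (blue) and in corticosterone rats (orange), and the interaction as the difference of the log2 fold changes for corticosterone, trained minus untrained (black), with 95% intervals on the x axis. Every interval spans 0 except that of Nfkbia in vehicle rats, whose value is -0.17.

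Ordered by mean level, the corticosterone groups stood above the vehicle groups for 5 of the genes. How many of all genes have such an order was not counted, so nothing is drawn from this count. Sgk1 is among the 5, although its averaged log2 fold change was 0.0023 without trained corticosterone replicate 28. For Fkbp5 the order was untrained corticosterone (100.9 ± 8.90 CPM, SD, n = 6), trained corticosterone (96.7 ± 9.89 CPM, n = 6), trained vehicle (74.3 ± 9.68 CPM, n = 5) and untrained vehicle (68.5 ± 9.49 CPM, n = 7). For Cdkn1a trained corticosterone (16.0 ± 2.64 CPM, n = 6) and untrained corticosterone (15.9 ± 4.89 CPM, n = 6) came before trained vehicle (6.46 ± 1.45 CPM, n = 5) and untrained vehicle (6.14 ± 2.29 CPM, n = 7). Zbtb16 had the same order as Cdkn1a, from 61.6 ± 10.1 CPM in trained corticosterone (n = 6) and 55.5 ± 7.09 CPM in untrained corticosterone (n = 6) to 43.0 ± 6.73 CPM in trained vehicle (n = 5) and 42.4 ± 5.74 CPM in untrained vehicle (n = 7).

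Neighbours of the same treatment did not pass for any of these genes. Between untrained corticosterone and trained vehicle, the middle pair of the order for Zbtb16 and Cdkn1a, Cdkn1a passed (log2 fold change 1.30, edgeR adjusted p = 0.00579) and Zbtb16 did not (0.37, edgeR adjusted p = 0.5). For Fkbp5 the middle pair was trained corticosterone and trained vehicle, given above. In untrained corticosterone against trained vehicle only Cdkn1a passed (1 of 6, against 0.155% of all genes as higher). Fkbp5 had an edgeR adjusted p of 0.0652 there and passed with DESeq2 (adjusted p = 0.00393), while Cdkn1a missed the threshold when blocked by runs of 5 sample numbers (edgeR adjusted p = 0.229). Between the ends of the design, trained corticosterone against untrained vehicle, Fkbp5 (1.41-fold, edgeR adjusted p = 0.00406), Zbtb16 (1.45-fold, edgeR adjusted p = 0.0133) and Cdkn1a (2.60-fold, edgeR adjusted p = 0.000625) passed, where 0.398% of all genes passed, 0.303% as higher and 0.0944% as lower. Zbtb16 missed the threshold there without trained corticosterone replicate 28 (log2 fold change 0.45, edgeR adjusted p = 0.0582), and without the 8 libraries high on the first component Fkbp5 (edgeR adjusted p = 0.126) and Zbtb16 (edgeR adjusted p = 0.11) did.

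The remaining members had narrower orders. Tsc22d3 went from 60.9 ± 6.02 CPM in trained corticosterone (SD, n = 6) through 58.7 ± 5.17 CPM in untrained corticosterone (n = 6) and 52.7 ± 3.82 CPM in untrained vehicle (n = 7) to 51.3 ± 6.25 CPM in trained vehicle (n = 5). Sgk1 went from 68.8 ± 3.67 CPM in untrained corticosterone (n = 6) and 68.2 ± 16.4 CPM in trained corticosterone (n = 6) to 67.3 ± 5.98 CPM in untrained vehicle (n = 7) and 63.2 ± 8.60 CPM in trained vehicle (n = 5). Nfkbia alone was highest in a vehicle group, with 16.4 ± 1.04 CPM in untrained vehicle (n = 7). Next came trained corticosterone with 15.3 ± 1.77 CPM (n = 6) and untrained corticosterone with 14.97 ± 1.06 CPM (n = 6). Trained vehicle was lowest, with 14.6 ± 0.959 CPM (n = 5). No pair of groups passed for these genes in any of the 6 pairwise contrasts.

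How the members varied with each other was measured within each treatment, since treatment itself separates the libraries. Among the 12 corticosterone libraries 14 of the 15 pairs of genes had a positive correlation of log2 CPM, with a median Pearson r of 0.47. Among the 12 vehicle libraries 10 of 15 pairs did, with a median of 0.08. The pairs share genes, and such counts were not made for other genes, so no difference between treatments is drawn from them. Of these libraries, 6 with corticosterone and 2 with vehicle were high on the first component. No pair passed after adjustment over the 30 tests (0 of 30; 4 pairs had an unadjusted p under 0.05, all in corticosterone libraries). The closest pair was Sgk1 and Nfkbia in corticosterone libraries, with a Pearson r of 0.81 (permutation test, p = 0.00259, adjusted p = 0.0777) and a Spearman rho of 0.72 (permutation test, p = 0.0116, adjusted p = 0.349). Without the 2 libraries farthest from the median of Sgk1 its r was 0.60. In vehicle libraries the same pair had an r of 0.56 (permutation test, p = 0.0574, adjusted p = 0.287).

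Single libraries moved these correlations in both directions. Trained corticosterone replicate 28 had the highest level of all 24 libraries for Sgk1 (98.2 CPM), Tsc22d3 (72.3 CPM), Zbtb16 (80.0 CPM) and Nfkbia (18.5 CPM), the 2nd highest for Fkbp5 (109.9 CPM) and the 6th highest for Cdkn1a (17.1 CPM). It was low on the first component, with the leading gene at 16.7 CPM, and had the largest total count, 16765088. Without it, 10 of the 15 pairs in corticosterone libraries were positive and the median r was 0.35. The r of Sgk1 and Nfkbia was then 0.59, and that of Tsc22d3 and Zbtb16 went from 0.47 to -0.03. Sgk1 and Nfkbia passed without untrained corticosterone replicate 14 (r = 0.92, permutation test, adjusted p = 0.0054) and without replicate 9 of that group (r = 0.84, permutation test, adjusted p = 0.0483), where Tsc22d3 and Nfkbia passed too (r = 0.82, permutation test, adjusted p = 0.0483). On residuals from the group means Sgk1 and Nfkbia passed as well (r = 0.83, permutation test, adjusted p = 0.0417).

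**Figure D5:**
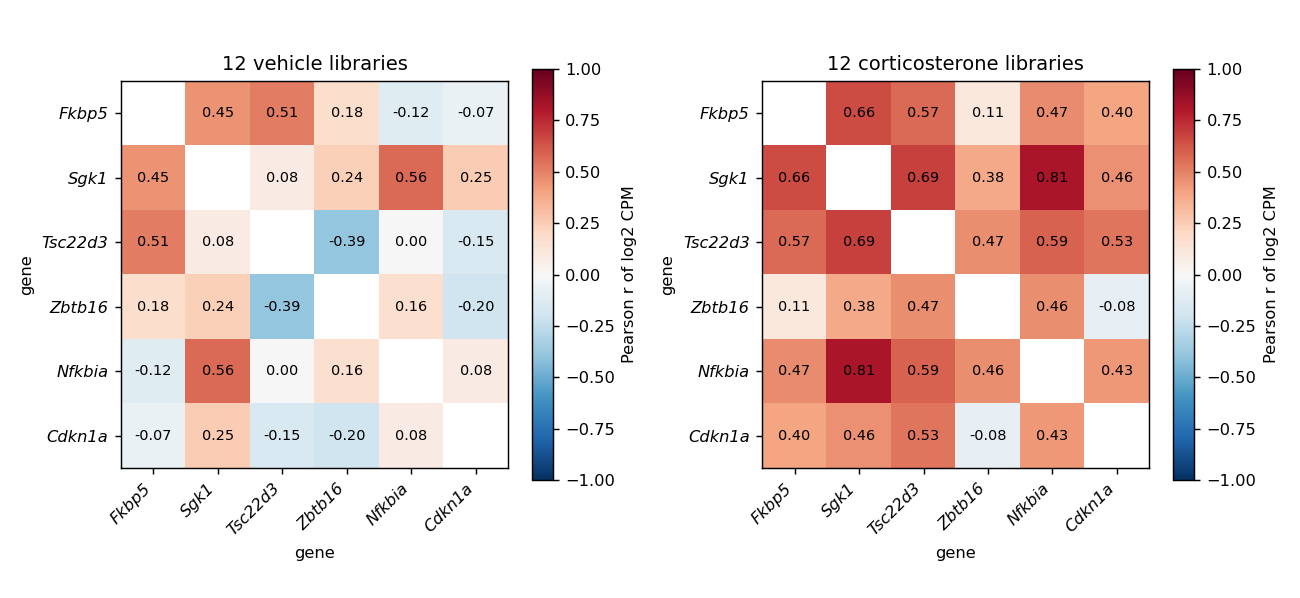
Pearson r of log2 CPM for each pair of the 6 genes (rows and columns), over the 12 vehicle libraries (left) and the 12 corticosterone libraries (right), with the colour scale running from -1 to 1. In corticosterone libraries 14 of 15 pairs are positive, with Sgk1 and Nfkbia at 0.81 and Zbtb16 and Cdkn1a at -0.08.

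Across all 24 libraries, the mean standardised level of the 6 genes followed Fkbp5 most closely (Pearson r = 0.83) and Nfkbia least (0.39). Against the mean of the other 5 genes, which leaves out the gene itself, r was 0.72 for Fkbp5 and 0.16 for Nfkbia. These are descriptions over libraries that share the treatment contrast. Of 13789 other genes, those averaging 1 CPM or more, the most alike in profile to the mean of the 6 was ENSRNOG00000019342, with r = 0.86 over 24 libraries, followed by ENSRNOG00000001250 with r = 0.84. The former went from 6.53 ± 0.773 CPM with vehicle to 11.7 ± 2.05 CPM with corticosterone, and the latter from 26.3 ± 3.12 CPM to 34.2 ± 5.73 CPM (SD, 12 libraries each). Neither identifier is paired with a name in the sources used here.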

How the data were processed

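Hippocampal RNA of 24 male Sprague-Dawley rat samples was sequenced as stranded paired-end libraries, per the labels' protocols. The deposited file is 1 table with raw read counts of Ensembl gene identifiers, made with STAR 2.7.0b and HTSeq 0.6.1 on build rn6, per the submitters' processing notes. Which annotation release and strand option were used is not given in the sources used here, and reads of overlapping or antisense genes may be mixed. The 5 summary rows of the counter were left out, of which reads in no feature made up 22.0% of a column total on average, and 61.0% were in genes. Groups were taken from the sample titles.

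Genes were filtered with filterByExpr, scaled with TMM and tested with edgeR 4.0.16 in R 4.3.3 (glmQLFit, glmQLFTest). The model held 4 group means of 24 libraries, 9 contrasts were taken, and Benjamini-Hochberg adjustment ran over all 14838 genes. Standard errors (SE) are Wald errors from the fit. CPM are counts scaled to TMM library sizes, and log2 CPM used a prior count of 2. Correlations used a two-sided permutation test with 1e+05 resamples. Alternatives were DESeq2 1.42.0, upper-quartile factors, other filters, fits of the compared groups alone, a surrogate variable (sva 3.50.0), runs of 5 sample numbers as a block, and leaving out each library. A fit without the 8 libraries high on the first component, and one with its leading gene as a covariate, were added after seeing the data. The scripts were tested on simulated data.

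The median total count was 15754782, and intervals include both library spread and counting error. Within groups, every pair of libraries differed by more than sampling noise (smallest chi-square per degree of freedom 4.09). The members and lists were chosen with earlier results of these data known. All 6 members were named by rule, then the 2 non-members most alike in profile. Lists of other pathway genes and cell type markers could not be looked up, since no table used here pairs the identifiers with symbols, so the tissue label was not checked against markers. A motif was searched on both strands of 250 bases before each RefSeq start.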

Additional observations from a re-analysis of the deposited data

Results flagged for a closer look

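Single libraries were compared with the rest of their group by Dixon's gap test at the 95% level. Of 24 combinations of a gene and a group 2 were picked out, and chance alone picks about 1 in 20. Cdkn1a stood at 11.2 CPM in untrained vehicle replicate 17, with the next of the 7 libraries at 6.23 CPM. The gene leading the first component was at 3064 CPM in that library, against 6.18 to 271 CPM in the other untrained vehicle libraries, and its part in the result was not tested. Tsc22d3 stood at 72.3 CPM in trained corticosterone replicate 28, with the next of the 6 libraries at 61.3 CPM.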

How the results depend on the processing

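No paired analysis was possible because no sample number occurs in more than 1 group and the labels name no pairs or batches. Runs of 5 consecutive sample numbers, which the labels do not describe as batches, were fitted as a block in its place. Number 41 was joined to the last run. Untrained corticosterone replicate 14 was alone in its run and so added nothing to the comparison of groups in that fit. Over all alternatives 1701 of 1764 values of the 54 gene results kept their direction and side of the threshold. Of the rest 7 lost a call, 9 gained one and 47 changed sign, none of the last a called value. Most of the 54 results were not called to begin with, and most alternatives left out 1 library, so the total says little about the called ones. Of the lost calls, 6 came from the runs as a block or the fit without the 8 libraries high on the first component. Averaged over training, Fkbp5, Zbtb16 and Cdkn1a passed in all 24 fits that left out 1 library. The number of members called in trained rats, 1 as reported, was 3 with DESeq2, 2 with 1 surrogate variable, 2 with the level of the gene leading the first component as a covariate and 0 when blocked by runs of 5 sample numbers. For untrained corticosterone against trained vehicle, 1 as reported, it was 2 with DESeq2, 0 with the runs and 1 to 2 when 1 library was left out, being 2 without untrained vehicle replicate 27, trained vehicle replicate 5 or trained corticosterone replicate 3. Without the 8 libraries high on the first component it was 1 in untrained rats, in place of 2, and 1 for trained corticosterone against untrained vehicle, in place of 3. The number of correlated pairs, 0 as reported, was 1 on residuals from the group means and 0 to 2 when 1 library was left out, being 2 without untrained corticosterone replicate 9 and 1 without replicate 14 of that group. The cause of these differences was not tested.

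Some log2 fold changes near 0 changed sign. With the runs as a block, Nfkbia for training in corticosterone rats was -0.013 and Sgk1 for trained corticosterone against untrained vehicle -0.012. Without the 8 libraries, Sgk1 was -0.028 for corticosterone in untrained rats and 0.094 for training in corticosterone rats, and the interaction of Cdkn1a was 0.15. With the covariate, Cdkn1a for training in corticosterone rats was -0.025. Leaving out 1 library gave, for Sgk1, -0.0099 to 0.049 for corticosterone in untrained rats, -0.024 to 0.18 in trained rats, -0.15 to 0.049 for training in corticosterone rats, -0.053 to 0.15 for the interaction and -0.12 to 0.081 for trained corticosterone against untrained vehicle. It gave, for Cdkn1a, -0.032 to 0.15 for training on average, -0.073 to 0.28 in vehicle rats, -0.095 to 0.13 in corticosterone rats and -0.27 to 0.083 for the interaction. For Tsc22d3 it gave -0.023 to 0.039 for training on average, -0.086 to 0.026 in vehicle rats and -0.0030 to 0.094 in corticosterone rats. For Zbtb16 in vehicle rats it gave -0.029 to 0.10, and for Nfkbia in corticosterone rats -0.036 to 0.054.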
